A study of Mus musculus with 16 samples.

Results

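Long intergenic noncoding RNA (lincRNA) probes made up 16194 of the 55681 non-control probes on the array, 29.1% of them. They were taken by their annotation alone, as every non-control probe whose systematic name held the word lincRNA or was a bare genome interval, and no measured value was used to pick them. The probes covered 3543 intervals of the mm9 build, counted as 4610 combinations of interval and strand. The suffix F was carried by 8171 probes and R by 8010, read here as the forward and the reverse strand, which the files do not define. Another 13 probes, of 3 intervals, carried no strand. An interval and strand held a median of 3 probes and at most 10, and the median interval was 10676 bp long, with lengths from 62 to 7128487 bp. Of the 16194 probes, 3554 had a signal well above background on 4 or more of the 16 arrays and were tested. The other 12640 were not tested, and 4918 of those passed background on 1 to 3 arrays.

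LincRNAs are transcripts that lie between protein-coding genes, are often capped, spliced and polyadenylated like messenger RNA, and do not code for a protein. Many were first mapped from chromatin marks of active promoters and of transcribed gene bodies in mouse cells, embryonic stem (ES) cells among them. They are known for low abundance and for levels that vary strongly between cell types. In ES cells, some are known to help hold the pluripotent state or to keep lineage genes silent.

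The study transfected mouse E14 ES cells, grown in serum with LIF, a cytokine that holds these cells undifferentiated, with plasmids by lipofection. Transfected cells were sorted for eGFP at 24 h, and polyadenylated RNA was taken at 48 h and labelled with Cy3 for 1-colour Agilent arrays. The EGFP group received the fluorescent protein alone and carried no TALE. The other 3 groups received a TALE, whose repeats were built to bind a chosen DNA site, here at Ptn, which codes for pleiotrophin, a secreted growth factor. In Ptn_VP64 the TALE was fused to VP64, a synthetic transcriptional activator, and in Ptn_DEL to DEL, an acidic peptide known to open chromatin. The labels do not say what the Ptn_Delta construct carries. All 4 groups are of 1 cell line and share the medium, the transfection and the sort. Each group has 4 arrays, from 2 biological and 2 technical replicates, and which arrays repeat a sample is not stated, so precision is limited by the number of arrays throughout. Replicates 1 and 2 of each group lay on 1 slide and replicates 3 and 4 on the other. The place of an array on its slide followed the construct, so place and construct cannot be told apart.

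A level below is the log2 of a probe's processed signal minus the log2 of its array's 75th percentile. A difference is a fitted one between 2 groups on that scale, except on single slides, where means are compared. In the test over 3 pairings, explained below, it is that of the pairing with the largest p. In fits of unaveraged arrays it is adjusted for the slide or the replicate number. Where arrays are missing, it can depart from the plain difference of group means. Since a probe's brightness depends on its sequence, a level says nothing about the amount of its transcript relative to that of another probe. The arrays were uneven. On 7 of the 16 arrays, between 38.0 and 49.3% of spots shared a single lowest signal, and dim or bright patches held 0.641 to 35.6% of spots per array. The linear level of Ptn, a multiple of the 75th percentile, was 0.329 to 0.626 in EGFP, 6.09 to 12.7 in Ptn_VP64, 0.166 to 1.61 in Ptn_DEL and 0.544 to 1.99 in Ptn_Delta, so each Ptn_VP64 array lay above all other arrays. All 14 ES cell markers were well above background on 16 arrays, and their summed linear level was 545.0 to 1115 in EGFP, 360.7 to 671.2 in Ptn_VP64, 541.6 to 921.0 in Ptn_DEL and 429.9 to 1221 in Ptn_Delta. The 11 trophoblast markers summed to 5.64 to 23.0 in EGFP, 25.6 to 184.5 in Ptn_VP64, 15.2 to 51.3 in Ptn_DEL and 16.6 to 68.5 in Ptn_Delta, and 9 of the 9 tested were higher in Ptn_VP64 than in EGFP (median 2.97), with Elf5 on 0 arrays. The 9 primitive endoderm markers summed to 11.8 to 60.5 in EGFP, 51.9 to 103.4 in Ptn_VP64, 45.8 to 65.4 in Ptn_DEL and 27.3 to 71.4 in Ptn_Delta, with 6 of 8 higher in Ptn_VP64 than in EGFP. Of the fibroblast markers 4 of 4 tested were higher there, and of the neural markers 3 of 5. Against EGFP, Ptn_DEL was higher in 8 of 9 trophoblast, 8 of 8 primitive endoderm, 4 of 4 fibroblast and 4 of 5 neural markers. For Ptn_Delta these were 6 of 9, 7 of 8, 3 of 4 and 2 of 5. In each TALE group, 4 of 14 ES cell markers were higher than in EGFP. Their median differences were -0.47 in Ptn_VP64, -0.48 in Ptn_DEL and -0.82 in Ptn_Delta. Of the defining blood markers, Ptprc, Hbb-b1 and Lyz2 were above background on 0 arrays. The part of these shifts in the lincRNA differences below was not tested.

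LincRNA probes gave a signal less often than the other probes of the same arrays. Of the lincRNA probes 21.9% were tested, against 52.1% of the 39487 other probes. On all 16 arrays 523 lincRNA probes (3.23%) were well above background, against 22.4% of the others, and 7722 (47.7%) passed on 0 arrays, against 29.4%. These 523 probes lay in 353 combinations of interval and strand, and 1935 combinations held at least 1 tested probe. By interval length, 19.3, 22.9, 24.7 and 20.9% of probes were tested in 4 classes of about equal size, from the shortest to the longest intervals. By chromosome the tested share ran from 15.3% on chromosome 9 to 28.8% on chromosome 17. It was 20.8% on the forward and 23.1% on the reverse strand.

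The share of lincRNA probes well above background varied between arrays of the same construct. It was 13.4, 10.1, 17.6 and 19.5% in EGFP replicates 1 to 4, and 17.4, 14.4, 13.7 and 17.2% in Ptn_VP64. In Ptn_DEL it was 19.04, 18.5, 11.97 and 18.6%, and in Ptn_Delta 21.3, 15.3, 13.9 and 23.1%. The 4 ranges overlapped, and the group means ± SD (n = 4) were 15.2 ± 4.25, 15.7 ± 1.91, 17.01 ± 3.37 and 18.4 ± 4.50% in that order. Other probes passed at 33.1 to 50.8% per array, above the lincRNA share on each of the 16 arrays. All 4 arrays of a group detected 801 lincRNA probes (4.95%) in EGFP, 1156 (7.14%) in Ptn_VP64, 1300 (8.03%) in Ptn_DEL and 1200 (7.41%) in Ptn_Delta. For the other probes these shares were 27.5, 35.0, 36.1 and 32.7%, so EGFP was lowest and Ptn_DEL highest for both kinds of probe.

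**Figure D1:**
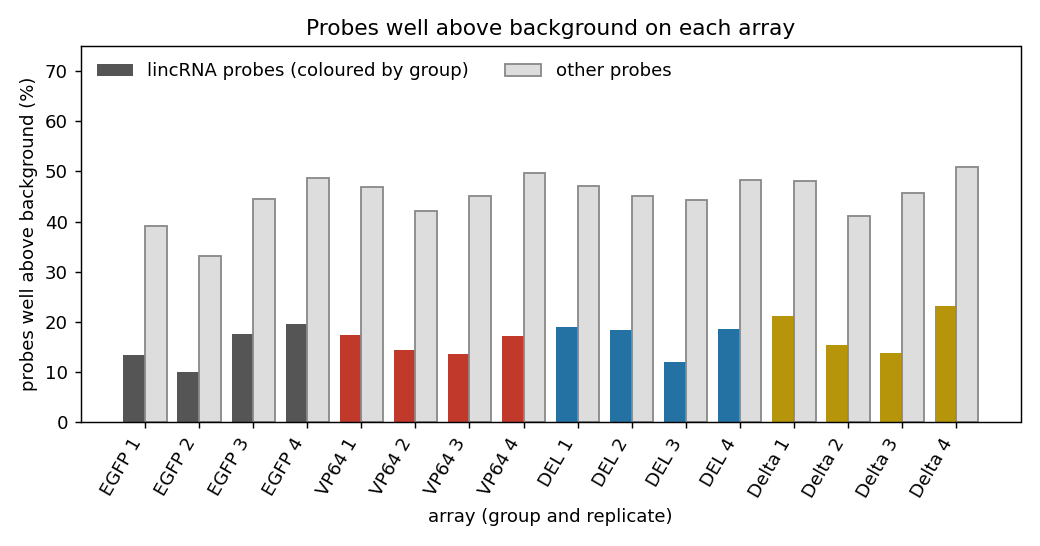
Share of probes well above background (percent, vertical axis) on each of the 16 arrays, with lincRNA probes as bars coloured by construct and all other non-control probes as grey bars. LincRNA bars lie between 10.1 and 23.1% and grey bars between 33.1 and 50.8%.

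A small set of lincRNA intervals gave a signal on every array. In 18 combinations of interval and strand with at least 3 probes, each probe was well above background on 16 of 16 arrays. Among them was chr6:116123643-116124550 on the forward strand (908 bp), whose 3 probes A_30_P01026091, A_30_P01026611 and A_30_P01021866 had mean levels of 6.52 ± 0.46 (SD, n = 13 arrays left after flagged spots), 6.38 ± 1.01 (n = 12) and 6.32 ± 0.44 (n = 14). All 3 were among the 10 lincRNA probes with the highest mean level. The reverse strand interval chr17:17481706-17482457 (752 bp) also had 3 of 3 probes on 16 arrays, with A_30_P01022075 at 6.09 ± 1.53 (n = 12). At the forward interval chr14:78924115-78938125 (14011 bp), by contrast, 1 of 7 probes was on 16 arrays, A_30_P01031448 at 6.43 ± 0.92 (n = 14). Other probes of the 10 were the only ones of their interval and strand. On the forward strand these were chr12:119825125-119850750 (6.40 ± 1.32, n = 16), chr17:48068261-48087905 (6.40 ± 1.08, n = 14) and chr4:141527564-141547339 (6.25 ± 0.39, n = 13). On the reverse strand they were chr7:108209996-108216032 (6.08 ± 0.91, n = 12) and chr11:22681800-22707775 (6.05 ± 0.87, n = 12). None of the 10 had an unadjusted p under 0.113 in any of the 6 comparisons between constructs (limma over 3 pairings, adjusted p of 1 throughout).

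Probing both strands of an interval showed on which strand signal was found. Probes lay on both strands of 1067 intervals. Of these, 473 had tested probes on exactly 1 strand, 206 of them forward and 267 reverse, 306 had tested probes on both strands and 288 on neither. In 13 intervals a probe of 1 strand passed on 16 arrays and the other strand passed on 0. At chr1:193875525-193978800 (103276 bp), 1 of 2 reverse probes, A_30_P01027122, was on 16 arrays at 5.02 ± 1.04 (n = 11). The 5 forward probes there were on 0 arrays, with A_30_P01021794 at -3.997 ± 1.13 (n = 16). At chr11:35805295-35817263 (11969 bp), the forward probe A_30_P01024472 was on 16 arrays (4.57 ± 0.48, n = 14) and the reverse probe on 0 (-4.44 ± 1.01, n = 16). At chr7:82902248-82955248 (53001 bp), 1 of 6 forward probes, A_30_P01024756, was on 16 arrays (4.45 ± 0.49, n = 13), and the single reverse probe was on 0 (-4.51 ± 0.68, n = 16). At chr17:95255725-95272425 (16701 bp), 4 of 5 reverse probes were on 16 arrays and the 4 forward probes were on 0. Both strands passed on 16 arrays in 12 intervals, among them chr12:73838608-73862621, chr2:168804720-168854970 and chr17:39960567-39992817. In the last of these, 2 of 4 forward and 4 of 5 reverse probes were on all 16 arrays.

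Long noncoding RNA genes with a name of their own are on the array through RefSeq accessions. Probes under these accessions are not counted above. Whether intervals counted above overlap such genes was not analysed. Of 45 such genes listed, 24 were matched. Malat1 and Neat1, which are known for abundant nuclear transcripts, were well above background on 16 arrays, as were Snhg1, Snhg3, Snhg5 and Snhg12, which host small nucleolar RNAs, Mir17hg, a microRNA host gene, Mirg and Tug1. Xist, which coats the inactive X chromosome, Jpx, Evx1os, Peg13 and Dnm3os were above background on 0 arrays. For Ptn_VP64 against EGFP, 11 of 15 tested were higher, with a median of 0.29, and 0 passed the threshold. With patch-corrected levels (explained below) 6 of 12 were higher, with a median of 0.03, and again 0 passed. Malat1 had a mean level of 2.24 ± 0.81 in EGFP (n = 3) and 2.11 ± 0.14 in Ptn_VP64 (n = 3). Kcnq1ot1 and Airn, antisense transcripts of imprinted regions, were above background on 7 and 10 arrays and on 0 EGFP arrays, and did not pass on patch-corrected levels either (adjusted p 0.109 and 0.150 in limma, arrays unaveraged).

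No lincRNA probe passed an adjusted p of 0.05 in any of the 6 comparisons of constructs when biological samples were the unit. In this test, limma was fitted to each of the 3 ways of pairing the 4 arrays of a group into 2 samples, the largest p was kept, and p-values were adjusted by Benjamini-Hochberg over all 24148 probes tested. Over all probes, lincRNA or not, 0 of 24148 passed in each comparison (background 0%, 24060 probes tested for Ptn_Delta against EGFP and 24131 for Ptn_DEL against Ptn_Delta). Unadjusted p-values under 0.05 went to 64 lincRNA probes (1.80%) for Ptn_VP64 against EGFP, where 3.36% of all probes had them. They went to 68 (1.91%) for Ptn_DEL against EGFP, with 2.46% of all probes, and to 105 (2.96%) for Ptn_Delta against EGFP, with 3.81%. The counts were 108 (3.04%) for Ptn_VP64 against Ptn_Delta, with 2.97% of all probes, 63 (1.77%) against Ptn_DEL, with 1.76%, and 26 (0.732%) for Ptn_DEL against Ptn_Delta, with 0.891%. With 2 samples in each group, a count of 0 does not show that the transcripts were alike between constructs.

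Among the smallest p-values of that test was a probe at chr3:10088209-10089038 on the forward strand, A_30_P01026895. Its level was -0.47, -2.90 and -1.78 in EGFP replicates 1, 3 and 4, and 2.05, 1.66 and 1.44 in Ptn_VP64 replicates 1, 3 and 4. It was 2.49, 1.53 and 0.54 in Ptn_DEL replicates 1, 3 and 4, and 1.58, 2.26 and 2.00 in Ptn_Delta replicates 2, 3 and 4. The EGFP arrays lay below each array of the TALE constructs, with differences of 3.20, 3.17 and 3.26 for Ptn_VP64, Ptn_DEL and Ptn_Delta (unadjusted p 0.00283, 0.00301 and 0.00257 and adjusted p 0.943, 1 and 1 in limma), and these comparisons share the EGFP arrays. A second probe, A_30_P01033125 at chr8:67550064-67560987 on the reverse strand, was low in Ptn_VP64 on the 2 arrays that measured it. It stood at 4.18, 1.60, 3.48 and 2.92 in EGFP, 0.53 and -3.30 in Ptn_VP64 replicates 2 and 3, 4.00, 2.17, 3.16 and 3.57 in Ptn_DEL, and 4.46, 2.51 and 3.59 in Ptn_Delta replicates 1 to 3. The Ptn_VP64 arrays lay below all others but differed from each other by more than the EGFP arrays did, and the difference from EGFP was -4.42 ± 1.17 (SE, limma, adjusted p of 1). At chr16:29804864-29815614 on the forward strand, A_30_P01030431 differed by -3.57 in Ptn_Delta and by -2.81 in Ptn_VP64 from EGFP (unadjusted p 0.000957 and 0.00411, adjusted p of 1 in limma).

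Over all tested lincRNA probes, the median difference of Ptn_VP64 from EGFP was -0.12, against 0.04 for the other tested probes. For this pair the lincRNA median lay below that of the other probes in each of 19 settings computed (other scalings, filters, single slides and left-out arrays), by 0.0429 to 0.306. The other TALE groups were lower too in some settings. The lincRNA median minus that of the other probes, against EGFP, was -0.16, -0.0721 and 0.00577 in Ptn_VP64, Ptn_DEL and Ptn_Delta on the levels above. It was -0.306, -0.355 and -0.269 with normexp, -0.255, -0.278 and -0.251 without a filter, and -0.0429, 0.0887 and 0.147 with quantile normalization. The sign of the Ptn_VP64 lincRNA median itself did not hold, since it was 0.05 after quantile normalization and 0.14 on the slide of replicates 3 and 4, against -0.53 on the slide of replicates 1 and 2, where the other probes stood at -0.30. In these bulk RNA samples, fewer cells of a type and less RNA per cell cannot be told apart. The arrays with a shared lowest signal were 2 of EGFP, 1 of Ptn_VP64, 2 of Ptn_DEL and 2 of Ptn_Delta, and their part in the medians was not tested.

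The patches on the arrays could be reduced by subtracting from each spot the median deviation of bright spots around it and leaving out spots in strong patches, which is called patch correction here. It kept 3193 of the 3554 tested lincRNA probes, and the median difference of Ptn_VP64 from EGFP was then -0.21 for lincRNA probes and -0.01 for the others. The lincRNA median stood lower within bands of similar mean level too. Under a level of -2, where 45.6% of the lincRNA probes lay, 66.1% of 1457 lincRNA probes were lower in Ptn_VP64 (median -0.27), against 54.4% of 2832 other probes (median -0.09). Between -2 and 0 it was 63.8% of 1095 lincRNA probes (median -0.19) against 47.7% of 4775 others (median 0.03). Over 0 it was 61.3% of 641 (median -0.14) against 51.3% of 9612 (median -0.02). In Ptn_DEL the 3 bands held 59.6, 53.2 and 44.1% lower lincRNA probes, against 55.2, 44.6 and 47.1% of the others, and in Ptn_Delta 56.7, 51.7 and 45.1% against 54.4, 45.2 and 48.4%. These shares describe the probes, which are not independent replicates, and all 3 comparisons share the EGFP arrays.

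**Figure D2:**
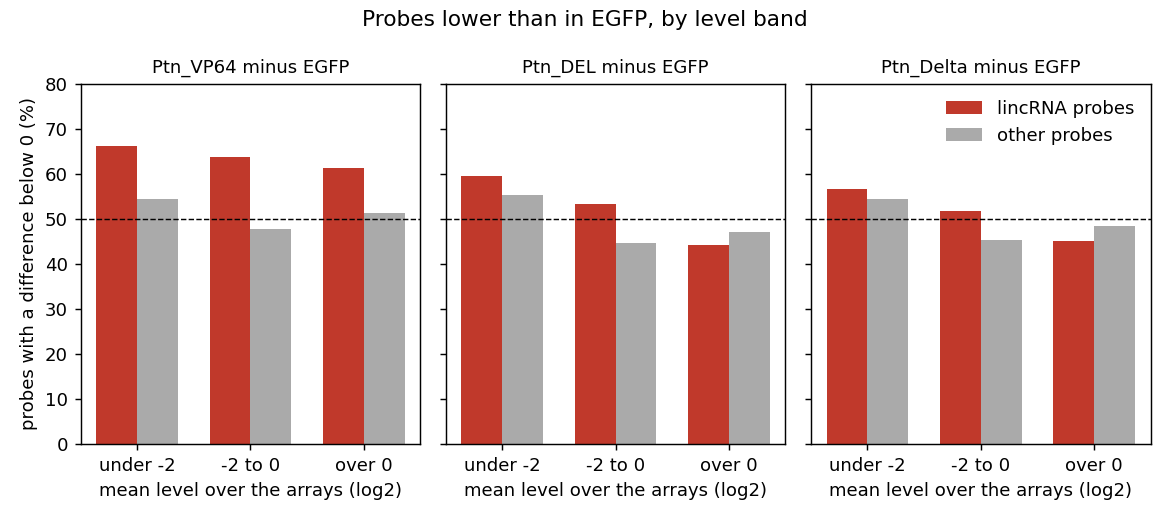
Percent of probes with a patch-corrected difference from EGFP below 0 (vertical axis) in 3 bands of mean log2 level (horizontal axis), for lincRNA probes in red and other probes in grey, with a dashed line at equal shares of higher and lower; each panel is 1 construct. In Ptn_VP64 the red bars stand at 66.1, 63.8 and 61.3% and the grey bars at 54.4, 47.7 and 51.3%, while over 0 in Ptn_DEL and Ptn_Delta the red bars stand at 44.1 and 45.1%.

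On patch-corrected levels, 0 lincRNA probes passed with the 3 pairings, where 1 of 20412 probes passed in each comparison of Ptn_VP64 (background 0.0049%). A further fit took the 16 arrays unaveraged with the slide as a term. Technical repeats stand in it as if they were replicates, which makes its p-values smaller than they should be, by how much is not known, and each call below has this limit. In it, 29 of 3193 lincRNA probes passed for Ptn_VP64 against EGFP, which is 0.908%, against 1.72% of all 20412 probes. The 29 were 7 higher probes, 0.219% against a background of 1.22%, and 22 lower probes, 0.689% against 0.495%. They lay in 24 combinations of interval and strand, 7 higher and 17 lower, at 22 loci once overlapping intervals are joined. The lower probes lay on 12 chromosomes, and chromosomes 5 and 15 held 6 and 5 of the 29. Their differences ran from 0.965 to 2.35 upward and from -1.16 to -4.22 downward, with adjusted p from 0.00529 to 0.0497 (limma). All 29 had the same sign in each same-numbered array pair measured, 28 of the 28 measured on both slides had the same sign on each, and 13 had an unadjusted p under 0.05 in the 3 pairings without patch correction. The signs come from the same corrected arrays that gave the calls and are no separate support. Without patch correction, pairs of both signs occurred for A_30_P01019519, A_30_P01020207, A_30_P01023453, A_30_P01030964, A_30_P01032256 and A_30_P01033370. Of the 29, 5 were above background on under 4 arrays outside the group where they were high, so without that group they would not have passed the filter on dim probes. They are A_30_P01018639, A_30_P01028877, A_30_P01029524, A_30_P01032120 and A_30_P01033370, and their values are descriptions. The 24 intervals held 38 further measured probes that did not pass, 34 of them with the sign of the called probe.

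The count depended on single arrays. Without Ptn_VP64 replicate 3 it was 12, without Ptn_VP64 replicate 1 it was 16, without EGFP replicate 1 it was 17 and without Ptn_VP64 replicate 4 it was 19. It reached 35 without EGFP replicate 3. The probes that passed in all 8 such fits were 3, namely A_30_P01022262 on chromosome 15, A_30_P01024551 on chromosome 6 and A_30_P01023453 at chr5:113749473-113750726 on the reverse strand (difference -2.39 ± 0.31 SE, adjusted p = 0.00767 in limma). Averaging the probes of an interval and strand gave 1821 lincRNA features, of which 21 passed, 3 higher and 18 lower (background 1.94% of 19040 features). This count ran from 9 without Ptn_VP64 replicate 3 to 30 without EGFP replicate 4, and was 10 without Ptn_VP64 replicate 1 and 13 without EGFP replicate 1. The interval levels below are these averages, with each probe first set on its own mean, and all differences named are of Ptn_VP64 from EGFP unless another pair is given.

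The forward strand of chr6:52046805-52072744 (25940 bp) was lower in Ptn_VP64 over most of its probes. It carried 6 probes, of which 5 remained after patch correction. Its level was 1.82, 1.97, 1.70 and 2.36 in EGFP replicates 1 to 4, and -1.35, -0.23, -0.92 and 0.75 in Ptn_VP64. It was 1.12, 2.28, 1.61 and 1.69 in Ptn_DEL, and 1.08, 2.13, 1.32 and 1.56 in Ptn_Delta. Each Ptn_VP64 array lay below each array of the other groups, and Ptn_VP64 replicate 4 was the nearest to them. The difference was -2.40 ± 0.40 (SE, adjusted p = 0.00906 in limma), and it passed without any 1 of the 8 arrays. Without patch correction it was -1.93, with an unadjusted p of 0.0272 over the pairings in limma. Against Ptn_DEL it was -2.12 (adjusted p = 0.0425) and against Ptn_Delta -1.96 (adjusted p = 0.063), while Ptn_DEL and Ptn_Delta differed from EGFP by -0.29 and -0.44 (adjusted p 0.925 and 0.802, all in limma). These comparisons share arrays.

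The 5 probes of this interval differed by -2.85 to -2.02. A_30_P01019947, which was above background on all 16 arrays, stood at 5.17, 4.60, 5.28 and 5.00 in EGFP, at 1.72, 1.94 and 3.55 in Ptn_VP64 replicates 1, 3 and 4, at 4.52, 4.50 and 5.33 in the same replicates of Ptn_DEL, and at 4.46, 4.36 and 5.39 in those of Ptn_Delta. Its Ptn_VP64 arrays lay below all others, and the difference was -2.69 ± 0.41 (SE, adjusted p = 0.0121 in limma). A_30_P01024551 stood at 1.02, 0.70 and 1.02 in EGFP replicates 1, 2 and 4, and at -2.42, -1.63, -1.95 and -0.51 in Ptn_VP64, a difference of -2.59 ± 0.38 (SE, adjusted p = 0.00919 in limma). This probe was the only lincRNA probe to pass against Ptn_Delta (-2.19, adjusted p = 0.0377, background 0.24%), and it passed in 2 of 8 fits that left out an array. The sixth probe, A_30_P01029896, was lost to patch correction. Its uncorrected level was 1.80, 2.00, 0.32 and 2.04 in Ptn_VP64 and 1.61 on the 1 EGFP array that measured it, which allows no comparison. On the reverse strand of the same interval, 2 of 9 probes were measured, with differences of -1.59 and -1.03 and 0 calls. A strandless interval 13361 bp away, chr6:52032838-52033444 (607 bp), had 5 probes with differences from -2.11 to -0.01 and 0 calls.

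**Figure D3:**
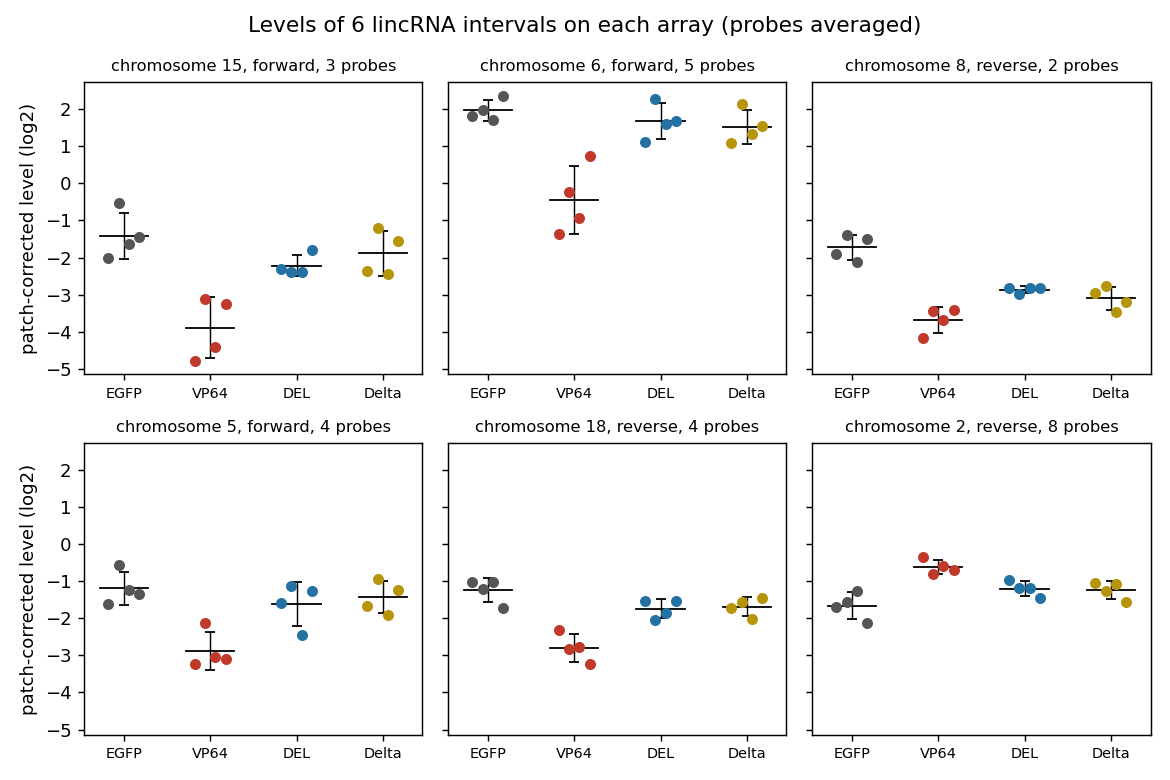
Patch-corrected interval levels (log2, vertical axis) of 6 lincRNA intervals on each of the 16 arrays (points) by construct (horizontal axis), with the mean and SD of each group's 4 arrays as bars. In the panels of chromosomes 5, 6, 8, 15 and 18 Ptn_VP64 lies below EGFP on each array, with 1.70 to 2.36 in EGFP and -1.35 to 0.75 in Ptn_VP64 on chromosome 6, and in the chromosome 2 panel it lies above. The intervals were picked for passing the threshold, with several probes all of the same sign and at least 5 of 8 fits without an array passed. Of overlapping ones the longer is drawn. The chromosome 8 and 5 panels include A_30_P01029524 and A_30_P01028877, whose values are descriptions.

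A pair of overlapping forward intervals on chromosome 15 was also low in Ptn_VP64. The inner of them, chr15:102100964-102104552 (3589 bp, 2 probes), had levels of -0.81, -0.30, -0.78 and -0.02 in EGFP and -3.51, -2.75, -3.49 and -2.21 in Ptn_VP64. The levels were -1.54, -0.58, -1.46 and -0.94 in Ptn_DEL and -1.75, -1.77, -1.68 and -1.13 in Ptn_Delta. The Ptn_VP64 arrays lay below all others, Ptn_Delta lay between them and EGFP, and Ptn_DEL overlapped with EGFP. The difference was -2.51 ± 0.32 (SE, adjusted p = 0.00237 in limma), and the interval passed in 8 of 8 fits without an array. Against Ptn_DEL it was -1.86 (adjusted p = 0.0268, background 0.368%), against Ptn_Delta -1.41 (adjusted p = 0.0848), and Ptn_Delta differed from EGFP by -1.11 (adjusted p = 0.311, all in limma).

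The outer chromosome 15 interval, chr15:102100397-102105872 (5476 bp, 3 probes), stood at -2.03, -0.54, -1.64 and -1.46 in EGFP and at -4.78, -3.12, -4.40 and -3.26 in Ptn_VP64. It was -2.31, -2.39, -2.39 and -1.78 in Ptn_DEL and -2.36, -1.21, -2.43 and -1.55 in Ptn_Delta. The Ptn_VP64 arrays lay below all others, with a difference from EGFP of -2.48 ± 0.43 (SE, adjusted p = 0.0113 in limma) that passed in 8 of 8 fits without an array. Where a probe was on 0 arrays of a group, the fitted difference does not measure a fold, and a bound is given. It takes, on each array of that group, the higher of the probe's own signal and the lowest signal above background. Where the own signal was the higher, it was used as it stood, so the bound is no strict limit. By that bound A_30_P01022262 of the inner interval, on 0 Ptn_VP64 arrays, was at least 3.8-fold lower (adjusted p = 0.00529 in limma), and A_30_P01019079 of the outer at least 3.61-fold lower (adjusted p = 0.0435 in limma). A_30_P01023361 of the inner interval, on 2 Ptn_VP64 arrays, differed by -2.94 ± 0.47 (SE, adjusted p = 0.0124 in limma). Its 4 Ptn_VP64 arrays stood at -3.06, -2.36, -3.08 and -1.58. The single reverse probe measured there differed by -1.25 and did not pass.

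The reverse interval chr8:12535648-12544923 (9276 bp) had 2 tested probes of 5. Its level was -1.90, -1.38, -2.12 and -1.51 in EGFP and -4.16, -3.45, -3.69 and -3.41 in Ptn_VP64. It was -2.83, -2.99, -2.81 and -2.82 in Ptn_DEL and -2.96, -2.77, -3.48 and -3.20 in Ptn_Delta. All 3 TALE constructs lay below each EGFP array, and Ptn_VP64 overlapped with Ptn_Delta. The adjusted p for Ptn_VP64 was 0.00151, passed in 8 of 8 fits without an array, and those of Ptn_DEL (-1.14) and Ptn_Delta (-1.38) were 0.185 and 0.111 (limma). Both probes were on 0 Ptn_VP64 arrays, so their folds are bounds, at least 4.3-fold lower for A_30_P01032587 and at least 2.19-fold for A_30_P01029524. The latter was above background on 1 EGFP, 1 Ptn_DEL and 2 Ptn_Delta arrays, the 4 the filter asked for. It is among the 5 probes whose values are descriptions, so the p and the 8 fits of the averaged interval rest in part on it. By itself A_30_P01032587 had an adjusted p of 0.0233 (limma) and passed in 4 of 8 fits without an array.

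The reverse interval chr18:69923410-69965360 (41951 bp) had 4 tested probes of 5, all lower. The level was -1.02, -1.21, -1.01 and -1.72 in EGFP, -2.32, -2.84, -2.78 and -3.23 in Ptn_VP64, -1.54, -2.05, -1.87 and -1.53 in Ptn_DEL and -1.72, -1.55, -2.03 and -1.44 in Ptn_Delta. Ptn_VP64 lay below the other groups without overlap, and the difference was -1.55 ± 0.23 (SE, adjusted p = 0.005 in limma, passing in 8 of 8 fits without an array). On the forward strand of that interval, the 2 measured probes differed by 0.02 and 0.59.

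On chromosome 5, a further pair of overlapping forward intervals was lower. In chr5:123440192-123451767 (11576 bp, 4 probes) the level was -1.62, -0.57, -1.23 and -1.36 in EGFP and -3.24, -2.12, -3.05 and -3.10 in Ptn_VP64. It was -1.59, -1.12, -2.45 and -1.27 in Ptn_DEL and -1.66, -0.94, -1.91 and -1.23 in Ptn_Delta. Ptn_VP64 did not overlap with EGFP, and Ptn_DEL replicate 3 reached into its range. The difference was -1.69 ± 0.33 (SE, adjusted p = 0.0197 in limma), which passed in 5 of 8 fits without an array. It rests in part on A_30_P01028877, which is among the 5 probes whose values are descriptions. The partner interval chr5:123439974-123448354 (8381 bp, 3 probes) had levels of 0.57, 1.53, 0.80 and 0.99 in EGFP and -1.28, -0.27, -0.97 and -0.18 in Ptn_VP64. The difference of -1.64 (adjusted p = 0.0474 in limma) passed in 1 of those 8 fits.

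Fewer lincRNA intervals were higher in Ptn_VP64. The reverse interval chr2:153163620-153170845 (7226 bp) had the most probes of them, and 8 of its 8 measured probes were higher, by 0.60 to 1.61. Its level was -1.70, -1.55, -1.26 and -2.14 in EGFP, -0.35, -0.81, -0.60 and -0.70 in Ptn_VP64, -0.97, -1.20, -1.19 and -1.46 in Ptn_DEL and -1.04, -1.25, -1.09 and -1.57 in Ptn_Delta. The Ptn_VP64 arrays lay above all others. The difference was 1.05 ± 0.20 (SE, adjusted p = 0.0189 in limma), and it did not pass without Ptn_VP64 replicate 1 or replicate 3. Ptn_DEL and Ptn_Delta differed from EGFP by 0.46 and 0.43 (adjusted p 0.623 and 0.58 in limma).

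The other higher calls rested on few probes. At chrX:50407969-50410370 on the reverse strand, A_30_P01032120 stood at -4.19, -3.77, -4.37 and -4.70 in EGFP, where it was above background on 0 arrays, and at -1.32, -1.87, -1.65 and -2.79 in Ptn_VP64, where it was on 3. It was on 0 Ptn_DEL arrays and 1 Ptn_Delta array, so without Ptn_VP64 it would not have passed the filter. As a description, Ptn_VP64 was at least 3.38-fold above EGFP, and the average of its interval, 1.80, did not pass (adjusted p = 0.0835). At chr9:39982939-39992189 on the reverse strand, A_30_P01031074 stood at -3.78 and -3.77 on the 2 EGFP arrays left and at -1.98, -1.75, -1.87 and -2.72 in Ptn_VP64, at least 2.57-fold higher (adjusted p = 0.0231 in limma). It was above background on 0 EGFP, 4 Ptn_VP64, 3 Ptn_DEL and 4 Ptn_Delta arrays. At chr1:87343550-87362900 on the forward strand, A_30_P01027120 was at least 2.79-fold higher (adjusted p = 0.0497 in limma), from 2 arrays in each group. A_30_P01019519 at chr5:122048289-122068947 on the reverse strand differed by 1.65 ± 0.37 (SE, adjusted p = 0.0435 in limma) and passed in 2 of 8 fits without an array.

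**Figure D4:**
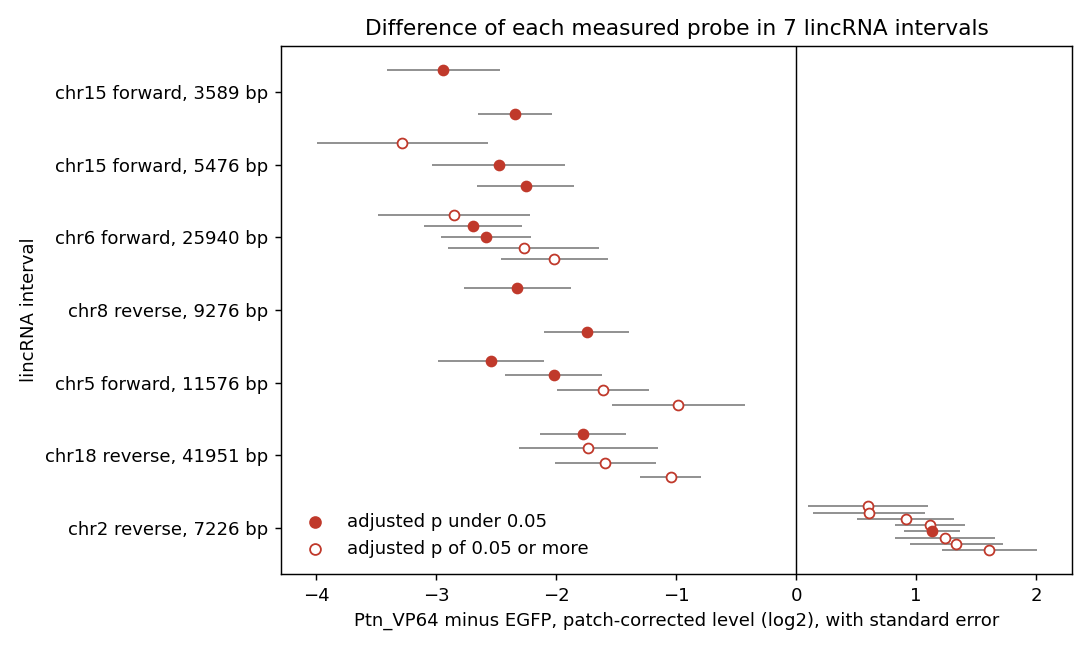
Difference of Ptn_VP64 from EGFP (log2, horizontal axis) of each measured probe in 7 lincRNA intervals (grouped along the vertical axis), on patch-corrected levels, with bars for the SE of the unaveraged fit; filled points passed an adjusted p of 0.05 and open points did not. All 5 points of the chromosome 6 interval lie between -2.85 and -2.02, and all 8 of the chromosome 2 interval between 0.60 and 1.61. Only averaged intervals past the threshold are drawn, with several probes all of the same sign and at least 5 of 8 fits without an array passed. Agreement in sign within an interval was thus fixed by the choice. A_30_P01029524 on chromosome 8 and A_30_P01028877 on chromosome 5 are drawn as descriptions.

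Among the remaining lower intervals, the largest fitted difference was that of chr17:87492112-87506638 on the reverse strand. Its probe A_30_P01033370 stood at 0.99 and 0.10 on the 2 EGFP arrays left and at -2.39, -2.89, -4.49 and -4.96 in Ptn_VP64. By the bound used above it was at least 13.9-fold lower. For this, only Ptn_VP64 replicate 3 was raised, to the lowest signal above background on its array, -2.80. The other Ptn_VP64 values were used as they stood. Without patch correction the bound was 4.11-fold, and 1 of 3 same-numbered pairs was higher in Ptn_VP64. EGFP replicate 1, which patch correction left out, then stood at -3.37, the shared lowest signal of that array. That value lay below Ptn_VP64 replicates 1 and 2. The probe was above background on 3 EGFP arrays, 0 of Ptn_VP64, 1 of Ptn_DEL and 0 of Ptn_Delta. EGFP thus took the probe past the filter, and both folds are descriptions. The probe passed in 0 of 8 fits without an array. At chr19:44651106-44657612 on the forward strand, the averaged level differed by -1.24 ± 0.21 (SE, adjusted p = 0.00944 in limma), but 1 of its 3 probes was higher, and without patch correction the difference was 0.03. The average includes A_30_P01018639, whose values are descriptions. All 3 TALE groups lay below EGFP there and overlapped with each other. EGFP stood at -1.89, -1.83, -1.30 and -1.79, and Ptn_VP64 at -2.68, -3.165, -2.88 and -3.05. Ptn_DEL stood at -2.86, -3.26, -3.34 and -2.52, and Ptn_Delta at -2.85, -2.60, -2.78 and -2.59. The other lower intervals were more even among their probes. All 4 probes were lower at chr10:84005221-84022896 on the reverse strand (-1.30, adjusted p = 0.0223 in limma). At chr14:26834450-26847000 on the forward strand, 5 of 5 were lower (-0.62, adjusted p = 0.04 in limma), and at chr5:105072936-105074001 on the forward strand 3 of 3 (-1.06, adjusted p = 0.0353 in limma). The forward interval chr4:146017200-146029700, with 4 of 4 lower, was the only lincRNA interval that passed against all 3 other groups, by -0.69 against EGFP (adjusted p = 0.0333), -0.91 against Ptn_Delta (adjusted p = 0.0254, background 0.294%) and -1.01 against Ptn_DEL (adjusted p = 0.0131, all in limma). That depended on single arrays. Against Ptn_Delta 0 lincRNA intervals passed without Ptn_VP64 replicate 1 or 3, or without Ptn_Delta replicate 1, 2 or 4. Against Ptn_DEL 0 passed without Ptn_DEL replicate 1 or 2.

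Where an interval and strand had at least 3 measured probes, their signs could be set against each other. Of 348 such intervals, 100 (28.7%) had each probe lower in Ptn_VP64 than in EGFP and 46 (13.2%) each probe higher. For Ptn_DEL the counts were 49 and 52, and for Ptn_Delta 40 and 62. In 4 intervals each probe was lower in Ptn_VP64 by more than 1, and these were the chromosome 6, outer chromosome 15 and chromosome 18 intervals and chr5:123439974-123448354. No interval had each probe lower by that much in Ptn_DEL or Ptn_Delta than in EGFP, and no interval had each probe higher by that much in any of the 6 comparisons. Probes of an interval share its transcript, and the 3 comparisons share the EGFP arrays.

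In the other comparisons of the unaveraged fit, few lincRNA probes passed. Against Ptn_DEL, 0 probes passed for Ptn_VP64 (background 0.255%), but 19 did with the replicate number as a block, 2 higher and 17 lower (background 1.17%). Same-numbered arrays of this pair of groups deviated together after patch correction. Without the block, 3 averaged intervals passed, those on chromosomes 4, 6 and 15 named above, and 0 passed on leaving out Ptn_DEL replicate 1 or 2. Ptn_DEL against EGFP had 0 (background 0%), Ptn_Delta against EGFP 0 (background 0.0147%, and 0.0098% upward) and Ptn_DEL against Ptn_Delta 0 (background 0%), with 0 averaged intervals in each. Leaving out single arrays moved some of these counts. Ptn_DEL against EGFP had 2, both lower, without EGFP replicate 4. Ptn_Delta against EGFP had 2 with EGFP replicate 3 left out and 1 each on leaving out EGFP replicate 4 or Ptn_Delta replicate 3, all lower. Ptn_VP64 against Ptn_DEL had 3 without Ptn_VP64 replicate 4. Ptn_VP64 against Ptn_Delta, with 1 call in all arrays, had 3 without Ptn_VP64 replicate 4, 3 without Ptn_Delta replicate 3 and 0 in the other 6 fits. Ptn_DEL against Ptn_Delta had 0 in all 8.

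Detection alone gave another view, without a fit. On at least 3 arrays of 1 group and on 0 of the 12 others, there were 12 lincRNA probes in EGFP, 3 in Ptn_VP64, 0 in Ptn_DEL and 17 in Ptn_Delta, against 13, 38, 3 and 32 other probes. As shares of all probes of each kind, these are 0.0741, 0.0185, 0 and 0.105% of the lincRNA probes and 0.0329, 0.0962, 0.0076 and 0.081% of the others. The 3 of Ptn_VP64 lay on the reverse strand of chr3:86827945-86886695, chr11:69184157-69201732 and chr2:128137419-128141735, each on 3 arrays. On 0 arrays of 1 group and on at least 9 of the 12 others, there were 38 in EGFP, 8 in Ptn_VP64 and 0 in each of the other groups, against 199, 9, 2 and 1 other probes. The shares were 0.235, 0.0494, 0 and 0% of the lincRNA probes and 0.504, 0.0228, 0.00506 and 0.00253% of the others. EGFP also had the fewest probes on all 4 arrays, among lincRNA and other probes alike. The 8 that Ptn_VP64 lacked included A_30_P01022262 of the inner chromosome 15 interval, A_30_P01032341 of chr5:123440192-123451767 and A_30_P01031484 of the strandless chromosome 6 interval. A further member was A_30_P01021790 at chr11:51854060-51903278 on the forward strand, at least 3.73-fold lower than in EGFP (adjusted p = 0.0328 in limma).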

How the data were processed

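Scanner tables of 16 arrays were used. The deposited processed signal is an intensity from Agilent Feature Extraction 11.5.1.1, corrected within its array for background and spatial trend, per the file headers, with no scaling of arrays to each other; the median spot and background signals are raw intensity, and the quality flags, 0 or 1 per spot, came deposited beside them. The authors' deposited series values are log2 and have identical quantiles in all arrays; they served as an alternative.

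The log2 processed signal minus the log2 75th percentile of each array was used, without non-uniform and population outlier spots. Probes that passed background on 4 or more of 16 arrays were fitted together with limma 3.58.1 in R 4.3.3, with all 4 groups in 1 fit and 2-sided tests adjusted by Benjamini-Hochberg; tables were made in Python 3.11.15. Which arrays repeat a sample is not stated, so the largest p of the 3 pairings was kept, with the difference of that pairing. P-values measure only the spread between these samples, part of which is technical. Scripts were tested on simulated data.

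Patch correction used a window of 21 by 21 spots around each spot and spots with a median level of at least -1, left out spots whose local shift lay over 1 log2 unit from the median, and required at least 2 arrays in every group. Normexp (offset 50) used the median signals, as the tables used here hold no mean signal. Averaging by interval and leaving out arrays of the patch-corrected fits were chosen after seeing the data. A bound on a fold took, on each array of the dim group that measured the probe, the higher of the probe's signal and the lowest signal well above background. Where the probe's signal was the higher, it entered unchanged and the bound is no strict limit. The labels do not say what equal replicate numbers share. After patch correction, the deviations of same-numbered arrays correlated at over 0.1 in all 4 pairs for Ptn_DEL with Ptn_VP64 (0.134 to 0.283) and with Ptn_Delta (0.340 to 0.578), and not for the other 4 comparisons, so the replicate block counts for those pairs of groups.

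The lincRNA class, the lists and the tests were chosen with earlier results of these data known. The text names the 10 probes of highest mean level among those on 16 arrays, the probes past the threshold or, in their absence, up to 3 of smallest p per direction, up to 5 rises and 5 falls of the patch-corrected fit, probes detected in 1 group only, and intervals split by strand. Other intervals were named after their values were seen. Genes next to the intervals and probe sequences were not analysed here, since no mm9 genome or annotation was used.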

Additional observations from a re-analysis of the deposited data

Results flagged for a closer look

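Of 47 groups of 4 values examined, 2 held an array far from the other 3, and chance flags about 1 group in 20. Without patch correction, A_30_P01023361 of chr15:102100964-102104552 stood at -1.537 in Ptn_VP64 replicate 4, while the other 3 Ptn_VP64 arrays lay between -3.096 and -3.063. Its patch-corrected levels there were -3.06, -2.36, -3.08 and -1.58. In Ptn_DEL replicate 3, 11.97% of lincRNA probes were well above background, while the other 3 arrays of that group lay between 18.46 and 19.04%.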

How the results depend on the processing

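Counts of lincRNA probes past the threshold were 0 for all 6 comparisons with quantile normalization, normexp, the deposited values, other filters, flagged spots kept, patch correction over the pairings and in each of the 48 fits without an array. On unaveraged, uncorrected arrays they were 0 with the slide and 0 with the replicate number as a block. With patch correction and unaveraged arrays, Ptn_VP64 against EGFP had 29 with the slide, 58 with the replicate block and 21 averaged intervals. Against Ptn_Delta it had 1, 18 and 1, and against Ptn_DEL 0, 19 and 3. In that order of comparisons, the slide shares were 0.908, 0.0313 and 0%, against 1.72, 0.24 and 0.255% of all probes. The replicate block shares were 1.82, 0.564 and 0.595%, against 3.22, 1.14 and 1.17%. Of averaged intervals 1.15, 0.0549 and 0.165% passed, against 1.94, 0.294 and 0.368% of all features. The other 3 comparisons stayed at 0 in each of these fits. Correlations of same-numbered arrays' deviations were -0.0986 to 0.418 (15 of 24 over 0.1), and -0.0609 to 0.578 after patch correction (18 of 24).

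Median differences moved in some settings. Without a filter on dim probes Ptn_DEL against EGFP was -0.546 and Ptn_Delta against EGFP -0.594. Ptn_DEL against Ptn_Delta was -0.0022 with quantile normalization, -0.016 with the deposited values, -0.0195 without a filter, -0.015 with patch correction and -0.17 on the slide of replicates 3 and 4, and ran from -0.1017 to 0.0297 without single arrays. The share on all Ptn_VP64 arrays was 3.798% without flagged spots and 7.219 to 9.522% without single arrays. The cause was not tested. Of 901 other values for 46 differences of named probes, 877 counted as the same, 24 crossed the threshold toward a call and 0 reversed in sign. Single-slide values have no p and were compared by sign alone. These probes were named in part for a constant sign over array pairs, which makes reversals unlikely from the start. Since 0 lincRNA probes passed in the main test, no value could lose a call. The 16 arrays, and signals at a shared lowest value, limit what weak probes can show.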
